A study of Mus musculus with 4 samples.

Results

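Invariant natural killer T (iNKT) cells leave the thymus with their effector programmes already in place, and members of the TNF superfamily are among the surface and secreted molecules that distinguish these programmes. Transcripts of 8 genes of this family were followed across iNKT stages and genotypes, namely the ligands Tnfsf8 (CD30 ligand), Tnfsf11 (RANKL) and Tnfsf14 (LIGHT), and the receptors Tnfrsf4 (OX40), Tnfrsf9 (4-1BB), Tnfrsf18 (GITR), Tnfrsf25 (DR3) and Tnfrsf1b (TNF receptor type 2). The genes were chosen by symbol, with no expression value in the rule, and all 8 of 8 were found once each among the 31053 genes of the deposited matrices. The cells were thymocytes positive for the PBS57-CD1d tetramer, a reagent that stains the invariant receptor, from 2 wild-type C57BL/6 mice and 2 Hivep3-/- mice, all untreated and 8-9 weeks old, with 1 droplet library (10x Genomics 5′ chemistry) per mouse. The sort mixed CD44low and CD44high cells in equal parts, so the shares of early and late cells do not describe a thymus. The Hivep3-/- mice lack the zinc finger protein HIVEP3 and had been backcrossed to C57BL/6, by a number of generations that no source used here gives.

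TNF superfamily ligands are mostly trimeric membrane proteins that can be shed, and their receptors signal through TRAF adaptors, to NF-κB and MAP kinases, or through death domains. RANKL from thymocytes and innate-like lymphocytes acts on medullary thymic epithelial cells, whose maturation and Aire expression depend on RANK. CD30 ligand and its receptor CD30 take part in contacts between activated lymphocytes. LIGHT binds HVEM and the lymphotoxin β receptor. OX40, 4-1BB and GITR are costimulatory receptors of activated and regulatory T cells, DR3 is the death domain receptor of TL1A, and TNF receptor type 2 binds TNF without a death domain.

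Of the 8 genes, 6 lie on chromosome 4, which also carries Hivep3 (mm10/GRCm38, chr4:119733784-120138045, plus strand). Tnfsf8 spans chr4:63831308-63861347 on the minus strand, 55.9 Mb from Hivep3, and the 5 receptor genes lie 25.1 (Tnfrsf1b) to 35.9 Mb (Tnfrsf4 and Tnfrsf18) from it. Tnfrsf4 (chr4:156013843-156016612) and Tnfrsf18 (chr4:156026164-156028895) are separated by 9551 bases, both on the plus strand. Tnfsf11 spans chr14:78277445-78308043 and Tnfsf14 chr17:57189492-57194177, both on the minus strand. Tnfrsf9 overlaps Camta1, and Tnfrsf18 overlaps the antisense gene Gm16008, each on the opposite strand, and no source used here gives the strand setting of the counting. Linkage of the chromosome 4 genes to the targeted locus was not tested.

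The windows from 250 bases before to 50 bases after annotated starts (RefSeq, GRCm38.p6) were read for all 8 genes, which have 10 such starts. They are shown for the 2 ligands whose counts differed between genotypes and for the 2 receptor genes whose windows matched a κB motif. They are written 5′ to 3′ on the strand of the gene, with matches in capitals.
Tnfsf8, chr4:63861235-63861534, minus strand: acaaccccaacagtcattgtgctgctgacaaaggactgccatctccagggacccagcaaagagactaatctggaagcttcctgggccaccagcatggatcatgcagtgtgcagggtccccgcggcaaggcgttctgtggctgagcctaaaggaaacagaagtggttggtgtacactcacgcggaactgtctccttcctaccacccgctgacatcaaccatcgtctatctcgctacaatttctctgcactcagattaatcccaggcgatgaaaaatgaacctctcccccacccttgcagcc
Tnfsf11, chr14:78307994-78308293, minus strand: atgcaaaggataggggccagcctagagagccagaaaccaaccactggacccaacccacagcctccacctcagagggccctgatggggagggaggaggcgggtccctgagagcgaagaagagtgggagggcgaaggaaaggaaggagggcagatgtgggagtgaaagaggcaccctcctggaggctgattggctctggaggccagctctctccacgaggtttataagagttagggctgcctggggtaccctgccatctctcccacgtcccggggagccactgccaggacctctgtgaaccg
Tnfrsf9, second start, chr4:150927749-150928048, plus strand: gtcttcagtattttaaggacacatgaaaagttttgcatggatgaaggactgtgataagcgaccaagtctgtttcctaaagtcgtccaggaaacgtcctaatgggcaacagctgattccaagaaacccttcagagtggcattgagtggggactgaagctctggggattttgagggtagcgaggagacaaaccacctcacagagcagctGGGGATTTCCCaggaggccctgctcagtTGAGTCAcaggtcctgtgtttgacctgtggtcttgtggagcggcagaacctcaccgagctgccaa
Tnfrsf25, second start, chr4:152116093-152116392, plus strand: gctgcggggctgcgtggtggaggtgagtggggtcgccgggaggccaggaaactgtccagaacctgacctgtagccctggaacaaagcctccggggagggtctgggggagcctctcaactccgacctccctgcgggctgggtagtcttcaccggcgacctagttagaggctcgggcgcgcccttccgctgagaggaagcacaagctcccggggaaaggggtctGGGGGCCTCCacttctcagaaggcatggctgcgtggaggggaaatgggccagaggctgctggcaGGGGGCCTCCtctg
The κB motif, searched on both strands in its degenerate form, matched at -43 to -33 (overlapping matches) in the second Tnfrsf9 window, and at -28 to -19 and 37 to 46 in the second Tnfrsf25 window. Of 32851 promoter windows of the same length, 8.46% held it. The AP-1 motif TGANTCA reads the same on both strands and was held by 7.81% of all windows. It matched at -15 to -9 in the second Tnfrsf9 window, and at -160 to -154 in the Tnfsf14 window. Neither motif matched in the Tnfsf8 and Tnfsf11 windows. A match describes letters in these windows and is not a measured binding site.

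After filtering, 7231, 3651, 4598 and 4167 cells remained in C57BL/6 replicates 1 and 2 and Hivep3-/- replicates 1 and 2, with 4596 to 6833 UMIs (unique molecular identifiers, 1 per captured transcript) in the median cell. Of the barcodes kept, 18 to 43 were shared by each pair of libraries. Cells were clustered without the counts of TNF superfamily genes, and clusters were called stage 0-like, cycling-like, iNKT2-like, iNKT17-like or iNKT1-like from marker genes, while 13.8% to 16.6% of cells per library stayed in 3 unnamed clusters. Hivep3 was measured at 38.5 and 36.4 CPM (counts scaled to a library total of 1e+06) in the C57BL/6 libraries and at 101 and 68.0 CPM in those labelled Hivep3-/-. No source used here gives the deleted part of Hivep3, so these 5′ counts do not check the labels, and the groups are named by them. C57BL/6 replicate 1 stood apart in sex-linked transcripts, with Xist at 324 CPM against at most 0.731 CPM in the other 3 libraries and no UMI of Ddx3y, so results are also given without it. Such fits hold 1 C57BL/6 mouse and no spread between C57BL/6 mice, so calls kept or gained in them are not support from replicates. The study describes the sorted C57BL/6 mice as female, and its methods name both sexes. C57BL/6 replicate 2 held Ddx3y at 45.5 CPM and Xist at 0.157 CPM, which goes against a female donor. Defining markers of 4 of the classes were Cd24a (67.5 to 127 CPM in stage 0-like cells and at most 9.51 CPM elsewhere), Mki67 (92.1 to 166 CPM in cycling-like cells and at most 4.42 CPM elsewhere), Tbx21 (97.9 to 137 CPM in iNKT1-like cells and at most 31.0 CPM elsewhere) and Zbtb16 (231 to 310 CPM in iNKT2-like cells). Zbtb16 alone does not set iNKT2-like cells apart, since it was at 155 to 274 CPM in iNKT17-like, 122 to 229 CPM in cycling-like and 72.0 to 217 CPM in stage 0-like cells.

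Levels are UMIs summed over the cells of a class in 1 library, as CPM of that sum, so that 1 sum stands for 1 mouse, and a sum cannot tell fewer positive cells from fewer transcripts per cell. Tests were edgeR quasi-likelihood tests over mice, with p adjusted over all genes by Benjamini-Hochberg and called at 0.05. An exact permutation test of 2 against 2 mice cannot go below 0.333, and the p-values measure only the spread between these mice. Of the genes followed, the genotype difference was called for 4 of 8 in cycling-like cells (percent of all tested genes called, 4.68%), for 1 of 6 tested in stage 0-like cells (0.732%) and for 1 of 8 in iNKT1-like cells (0.694%). It was called for 0 of 8 in iNKT2-like cells (0.423%) and 0 of 5 tested in iNKT17-like cells (0.0661%). In iNKT2-like cells Tnfsf8 and Tnfrsf4 had an unadjusted p under 0.05, and DESeq2 called 1 gene, Tnfsf8. In iNKT17-like cells 0 genes had an unadjusted p under 0.05, and DESeq2 called 0. The median log2 difference of the tested genes ran from -0.49 in cycling-like cells to 0.36 in stage 0-like cells, and that of all genes tested lay between -0.00 and 0.03 in every class.

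**Figure D1:**
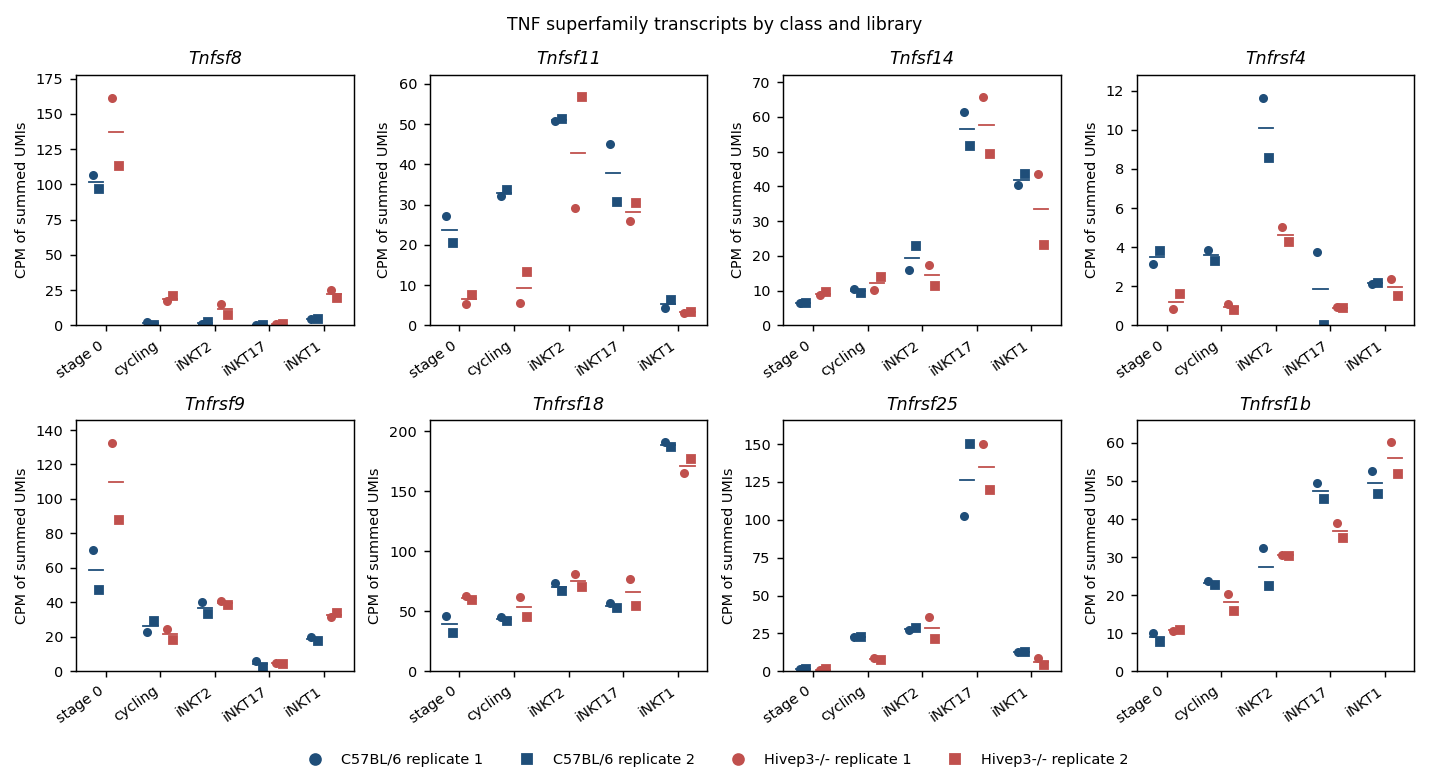
CPM of summed UMIs (vertical axes, linear from 0, scaled per gene) of the 8 genes in the 5 classes, with 1 point per library and a bar at the mean of the 2 libraries of a genotype. Tnfsf8 stood highest in stage 0-like cells in all 4 libraries (96.8 to 161 CPM), and Tnfrsf25 in iNKT17-like cells (103 to 150 CPM).

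Tnfsf8, the CD30 ligand gene, was highest in stage 0-like cells in both genotypes. In stage 0-like cells it was at 107 and 96.8 CPM in the C57BL/6 libraries and at 161 and 113 CPM in the Hivep3-/- libraries. The knockout libraries were the higher pair without overlap, as for 40.2% of genes tested in this class, and the log2 difference of 0.30 ± 0.19 (SE, n = 2 mice per genotype) did not pass the test (adjusted p = 0.763, edgeR). In C57BL/6 mice the next class was iNKT1-like, lower by 4.05 ± 0.25 on the log2 scale (adjusted p = 3.56e-12), followed by iNKT2-like and cycling-like cells, which did not differ beyond their spread (adjusted p = 0.564). No UMI of Tnfsf8 was found among the 2438988 UMIs of C57BL/6 iNKT17-like cells, which allows up to 1.23 CPM at 3 counts over the group, so that stage 0-like cells were at least 84.2-fold higher.

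Outside stage 0, Tnfsf8 was called higher in the mutant in iNKT1-like and cycling-like cells. In iNKT1-like cells it was at 4.90 and 4.67 CPM in C57BL/6 and at 25.1 and 19.4 CPM in Hivep3-/- libraries. Both knockout libraries lay above both wild-type libraries, as for 37.2% of genes tested in this class. The log2 difference was 2.14 ± 0.19 (adjusted p = 0.00390, edgeR), and 2.01 to 2.25 with 1 library left out. The summed level of 7 double positive thymocyte markers moved with Tnfsf8 in this class, at 5.28 and 3.84 against 24.9 and 21.0 CPM with 3 to 4 of 7 detected. Most of that sum was Cd8a in Hivep3-/- cells (21.4 and 17.4 CPM, against 1.54 and 1.56 CPM in C57BL/6), while Rag2 and Arpp21 were at 0 in all 4 libraries, Rag1 had 2 UMIs in 1 library and 0 in the others, and Cd24a was at most 1.15 CPM. In cycling-like cells it was at 2.56 and 0.659 CPM against 17.1 and 20.6 CPM. The groups again did not overlap, as for 54.1% of genes tested there, and the log2 difference was 3.19 ± 0.44 (adjusted p = 0.00656, edgeR). With 1 library left out, the log2 difference was 2.73 to 4.63. The counts behind it were 41 UMIs in C57BL/6 and 151 in Hivep3-/- cells. In iNKT2-like cells the values were 0.870 and 2.71 CPM against 15.6 and 7.40 CPM, from 24 and 95 UMIs. They did not overlap, as for 44.8% of genes tested, but the log2 difference of 2.81 ± 0.56 did not pass (adjusted p = 0.114). In iNKT17-like cells, with 0 and 2 UMIs per genotype, Tnfsf8 was too rare to test.

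The difference was also present within single iNKT1-like clusters, which take unlike shares of the class in the 2 genotypes (cluster 2 held 487 and 296 C57BL/6 cells and 831 and 749 Hivep3-/- cells). In cluster 2 Tnfsf8 was at 12.9 and 14.1 against 41.6 and 33.7 CPM (log2 1.42 ± 0.24, adjusted p = 0.0452). In cluster 0 it was at 3.1 and 3.81 against 16.5 and 11.2 CPM (log2 1.93 ± 0.30, adjusted p = 0.0436), and in cluster 4 at 2.97 and 3.05 against 21.0 and 13.4 CPM (log2 2.43 ± 0.38, adjusted p = 0.0344). In cluster 8, the smallest of the 4, the difference of 2.53 ± 0.72 did not pass (adjusted p = 0.298). Interferon response genes (Ifit3, Isg15, Irf7) led this cluster of 880 cells, which had 0 iNKT1 markers among its top 20 genes and was put in the class by mean marker level. These 4 clusters called 0.354% to 0.387% of genes. In the unnamed cluster 3, led by Klra3 and Cxcr3, Tnfsf8 was at 0.358 and 0 CPM against 10.7 and 5.91 CPM (adjusted p = 0.0672). The unnamed cluster 7 gave a log2 difference of 0.78 ± 0.25 for Tnfsf8, which did not pass (adjusted p = 0.194). Stage 0-like cells made up 5.14% and 3.37% of C57BL/6 cells and 8.24% and 9.89% of Hivep3-/- cells, and their part in the value over all cells was not tested. Over all cells kept, a mixture of classes whose shares differ between libraries, Tnfsf8 was the 1 of 8 genes called (0.765% of all genes). It was at 6.80 and 5.72 against 32.8 and 25.9 CPM, a log2 difference of 2.13 ± 0.19 (adjusted p = 0.00953). This call was lost without C57BL/6 replicate 1 (adjusted p = 0.0506) or Hivep3-/- replicate 1 (adjusted p = 0.0670).

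Thinning each cell to 2000 UMIs set depth equal between cells. Of iNKT1-like cells, 0.759% (95% Wilson interval 0.492 to 1.17) and 0.848% (0.523 to 1.37) had a Tnfsf8 UMI in C57BL/6 libraries, against 4.82% (4.08 to 5.68) and 3.99% (3.24 to 4.91) in Hivep3-/- libraries. The unthinned shares were 1.64%, 2.16%, 13.5% and 10.3% at median depths of 3410, 4612.5, 6474 and 5764 UMIs. Free RNA can put UMIs into cells that do not express a gene. In iNKT17-like cells, used as this background, the thinned shares were 0 of 223 (up to 1.35%), 0 of 127 (up to 2.36%), 0.763% and 0 of 128 (up to 2.34%), at median depths of 5672.5 to 8190 UMIs. The thinned C57BL/6 iNKT1-like shares were therefore within the range that these few iNKT17-like cells allow. Summed over all their UMIs, C57BL/6 iNKT1-like cells were at 4.79 CPM. That is at least 3.89-fold above the 1.23 CPM that the iNKT17-like count of 0 allows (adjusted p = 0.00822, edgeR). The Hivep3-/- shares were above the limits of the 3 libraries at 0, but the Wilson interval of the 1 of 131 iNKT17-like cells of Hivep3-/- replicate 1 reached above the share of Hivep3-/- replicate 2. In stage 0-like cells the thinned shares were 14.7%, 14.7%, 23.7% and 17.1%, after 107, 14, 20 and 43 shallower cells were left out, so most cells of the class had no UMI at this depth. Intervals and limits cover counting error only.

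**Figure D2:**
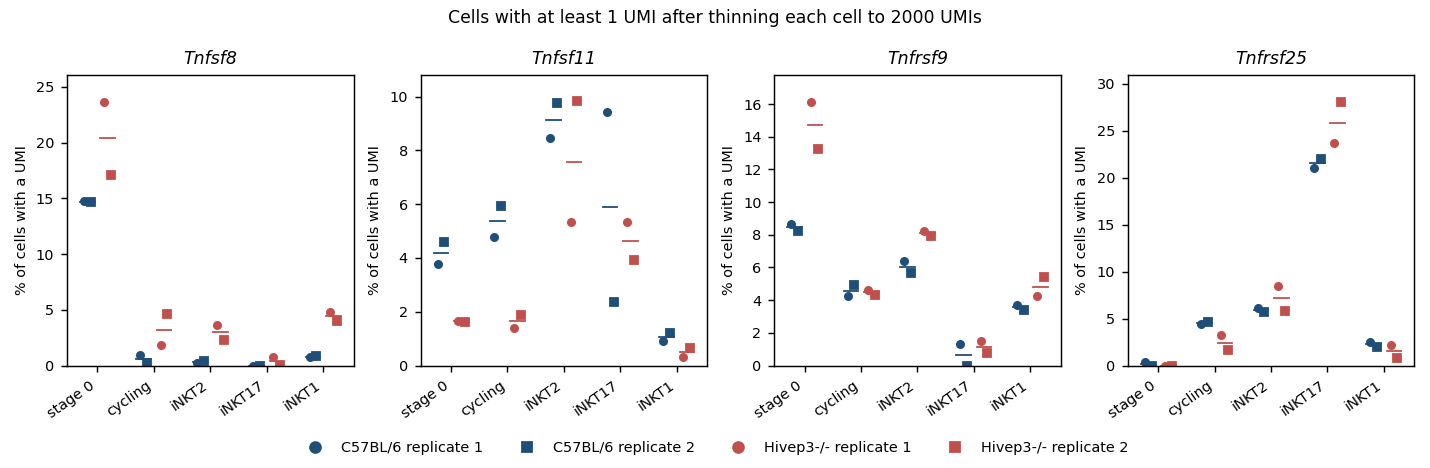
Percent of cells with at least 1 UMI of Tnfsf8, Tnfsf11, Tnfrsf9 and Tnfrsf25 (vertical axes, from 0) per class after thinning to 2000 UMIs, with 1 point per library and a bar at the genotype mean. For Tnfsf8 in iNKT1-like cells the Hivep3-/- libraries (4.82% and 3.99%) lay above the C57BL/6 libraries (0.759% and 0.848%).

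Tnfsf11, which encodes RANKL, had a different distribution, high in iNKT2-like and iNKT17-like cells of both genotypes and lower in the mutant in the earliest cells. In iNKT2-like cells it was at 50.7 and 51.3 CPM in C57BL/6 and 29.1 and 56.7 CPM in Hivep3-/- libraries. The groups overlapped and did not differ by the test (log2 -0.32, adjusted p = 0.754). In iNKT17-like cells the values were 45.0 and 30.8 against 25.9 and 30.4 CPM (adjusted p = 0.932). In C57BL/6 mice iNKT2-like, iNKT17-like and cycling-like cells did not differ between neighbours in this order (adjusted p = 0.0572 and 0.471). Compared directly, cycling-like cells were lower than iNKT2-like cells (log2 -0.73 ± 0.13, adjusted p = 8.05e-05, edgeR). Stage 0-like cells were lower than cycling-like cells (adjusted p = 0.0220), and iNKT1-like cells were lowest (adjusted p = 9.48e-06).

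In cycling-like cells Tnfsf11 was at 32.3 and 33.8 CPM in C57BL/6 and at 5.46 and 13.3 CPM in Hivep3-/- libraries. The genotypes did not overlap, as for 54.1% of genes tested in this class. Both knockout libraries were the lower ones. The log2 difference of Tnfsf11 was -1.88 ± 0.33 (adjusted p = 0.0184, edgeR), and -2.80 to -1.45 with 1 library left out. Stage 0-like cells held it at 27.2 and 20.4 against 5.34 and 7.64 CPM, again without overlap, as for 40.2% of genes tested there. The log2 difference was -2.01 ± 0.38 (adjusted p = 0.0358). Zbtb16, the defining marker of iNKT2-like cells here, moved with the genotype in stage 0-like cells, at 217 and 192 against 73.1 and 72.0 CPM. Its part in the Tnfsf11 difference was not tested. The stage 0-like call of Tnfsf11 was lost without C57BL/6 replicate 1 (adjusted p = 0.106) and in DESeq2 (adjusted p = 0.105). The unnamed cluster 7, led by Tnni1, Klrb1a and Htra3, held Tnfsf11 at 29.1 and 32.6 CPM in C57BL/6 and 3.1 and 3.29 CPM in Hivep3-/- cells. There it was the 1 of 8 genes called (2.75% of all genes), with a log2 difference of -3.29 ± 0.36 (adjusted p = 0.00112, edgeR). Cluster 7 held 197 and 35 C57BL/6 cells and 286 and 380 Hivep3-/- cells, so the level of C57BL/6 replicate 2 rests on 35 cells. With 1 library left out, the log2 difference was -3.40 to -3.21. In iNKT1-like cells Tnfsf11 was low in every library, at 4.23, 6.22, 3.18 and 3.36 CPM. The genotypes did not overlap, as for 37.2% of genes tested in this class, and the difference was not called (log2 -0.75, adjusted p = 0.544). Over all cells the values were 29.6, 24, 7.58 and 14.6 CPM (adjusted p = 0.146), a mixture of classes whose shares differ between libraries.

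The 3 large cycling-like clusters gave Tnfsf11 differences in the same direction when tested alone. Cluster 6 was at 36.0 and 30.1 against 6.26 and 14.3 CPM (log2 -1.76 ± 0.33, adjusted p = 0.0258). Cluster 10 gave -1.85 ± 0.46 (adjusted p = 0.0884), and cluster 11 gave -1.53 ± 0.40 (adjusted p = 0.0684). These clusters called 4.01%, 2.05% and 3.23% of genes. Tnfsf8 in the same clusters rose in cluster 6 (log2 3.41 ± 0.62, adjusted p = 0.0222) and cluster 11 (log2 3.14 ± 0.40, adjusted p = 0.00100), and its value of 2.88 ± 0.71 in cluster 10 did not pass (adjusted p = 0.0892). Other transcripts moved with the genotype in the cycling-like class. Zbtb16, which encodes PLZF, was at 229 and 180 against 154 and 122 CPM, and Cd24a at 3.53 and 0.823 against 5.83 and 9.51 CPM. The summed level of 7 double positive thymocyte markers was 22.9 and 10.5 against 40.1 and 32.7 CPM, with 4 to 7 of 7 markers detected and Rag1 and Rag2 at most 0.900 CPM. Cluster 11 made up 193 and 77 cycling-like cells in C57BL/6 and 40 and 123 in Hivep3-/- libraries. Cluster 10 made up 30.9% and 30.7% of cycling-like cells in C57BL/6 and 21.4% and 18.9% in Hivep3-/- libraries. The small cluster 13, not tested alone, made up 1.02% and 2.58% against 11.8% and 4.58%. The part of these values in the cycling-like differences was not tested.

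**Figure D3:**
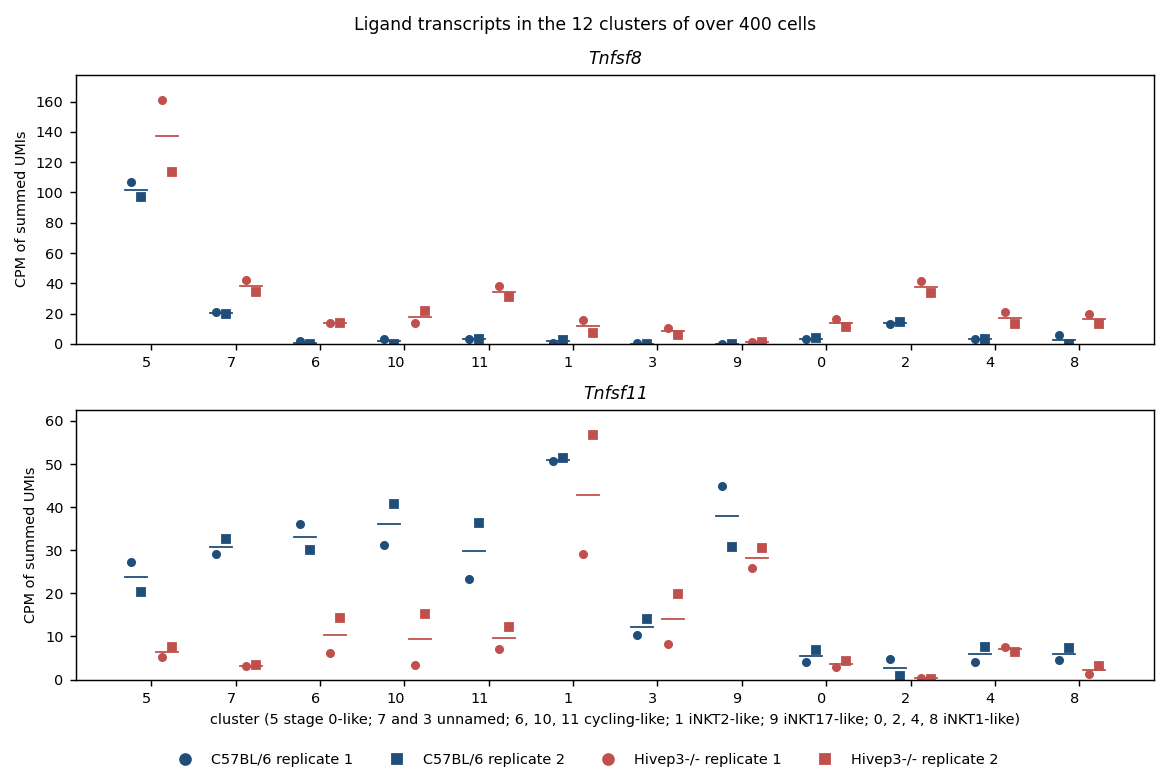
CPM of summed UMIs (vertical axes, linear from 0) of Tnfsf8 and Tnfsf11 in the 12 clusters of over 400 cells, with 1 point per library and a bar at the genotype mean. Tnfsf8 was highest in cluster 5, the stage 0-like cells, and Tnfsf11 in cluster 7 was at 29.1 and 32.6 CPM in C57BL/6 against 3.1 and 3.29 CPM in Hivep3-/- cells. Cluster 7 held 35 cells of C57BL/6 replicate 2.

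Tnfsf14, which encodes LIGHT, had its highest levels in iNKT17-like and iNKT1-like cells. In iNKT17-like cells it was at 61.4, 51.6, 65.7 and 49.3 CPM (C57BL/6 replicates 1 and 2, then Hivep3-/- replicates 1 and 2), and in iNKT1-like cells at 40.4, 43.5, 43.7 and 23.1 CPM. The last library was the low one, and the genotypes overlapped in both classes. It was at 6.33, 6.37, 8.62 and 9.65 CPM in stage 0-like cells. The step from iNKT1-like to iNKT17-like cells did not pass in C57BL/6 mice (0.34 ± 0.20, adjusted p = 0.236) and passed in Hivep3-/- mice (0.69 ± 0.21, adjusted p = 0.0168). In the wild type, iNKT1-like cells exceeded iNKT2-like cells by 1.16 ± 0.16 on the log2 scale (adjusted p = 2.33e-06), and iNKT2-like exceeded cycling-like cells by 0.96 ± 0.20 (adjusted p = 0.000323). No genotype difference of Tnfsf14 passed the test in any class.

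Among the receptors, Tnfrsf9 (4-1BB) was highest in stage 0-like cells and lowest in iNKT17-like cells. Its stage 0-like levels were 70.3 and 47.1 CPM in C57BL/6 and 132 and 88.0 CPM in Hivep3-/- libraries. Of all genes tested in this class, 40.2% did not overlap between genotypes. The groups did not overlap, and the log2 difference of 0.74 ± 0.23 did not pass (adjusted p = 0.266), while without C57BL/6 replicate 1 it was 1.07. In Hivep3-/- mice stage 0-like cells exceeded the next class, iNKT2-like, by 1.08 ± 0.16 (adjusted p = 4.82e-06), and in C57BL/6 mice these neighbours did not differ beyond their spread (0.34 ± 0.20, adjusted p = 0.189). In iNKT17-like cells Tnfrsf9 was at 5.99, 2.72, 4.63 and 4.48 CPM. In iNKT1-like cells it was at 19.9 and 17.3 against 31.3 and 33.7 CPM, without overlap, as for 37.2% of genes tested there (log2 0.73 ± 0.16, adjusted p = 0.141). One iNKT1-like cluster held a larger difference, cluster 4, with 12.5 and 16.0 CPM in C57BL/6 and 58.0 and 59.3 CPM in Hivep3-/- cells (log2 1.94 ± 0.22, adjusted p = 0.00837), a test chosen after seeing the data. The differences in clusters 0, 2 and 8 were 0.42, 0.17 and 0.04, and none was called. Of all iNKT1-like cells, 3.72% and 3.39% in C57BL/6 and 4.24% and 5.40% in Hivep3-/- libraries had a Tnfrsf9 UMI after thinning. The most Tnfrsf9 UMIs in a single unthinned cell of this class were 5 and 6 against 44 and 17. Whether few cells with many UMIs make up the cluster 4 difference was not tested. In cycling-like and iNKT2-like cells the genotypes overlapped, at 18.4 to 29.0 and 33.0 to 40.9 CPM.

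Tnfrsf25, the gene of DR3, was highest in iNKT17-like cells, nearly undetected in stage 0-like cells, and lower in the mutant in cycling-like cells. In iNKT17-like cells it was at 103, 150, 150 and 120 CPM, and in stage 0-like cells it had 3 and 5 UMIs per genotype, at 0.821 to 1.27 CPM. In C57BL/6 mice all neighbours in the order iNKT17-like, iNKT2-like, cycling-like, iNKT1-like and stage 0-like differed, with log2 steps of 2.02 ± 0.15, 0.41 ± 0.14, 0.77 ± 0.15 and 3.63 ± 0.56 (adjusted p at most 0.0246). Thinned shares of cells with a UMI were 21.1%, 22.0%, 23.7% and 28.1% in iNKT17-like cells, and 1 of 265, 0 of 109, 0 of 359 and 0 of 369 in stage 0-like cells. In cycling-like cells it was at 22.4 and 22.9 CPM in C57BL/6 and 8.74 and 7.53 CPM in Hivep3-/- libraries. Of all genes tested in this class, 54.1% did not overlap between genotypes. The replicates lay close together and the groups did not overlap. The log2 difference was -1.65 ± 0.22 (adjusted p = 0.00641, edgeR), and -1.72 to -1.58 with 1 library left out. Within the class, the call held in cluster 6 (-1.23, adjusted p = 0.0381) and cluster 11 (-3.03, adjusted p = 0.0184), and the value of -1.55 ± 0.38 in cluster 10 did not pass (adjusted p = 0.0841). In iNKT1-like cells the values were 12.8 and 12.5 against 8.59 and 3.97 CPM (log2 -1.08, adjusted p = 0.282), and in iNKT2-like cells the genotypes overlapped, at 27.5, 28.4, 35.6 and 21.5 CPM.

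Tnfrsf4 (OX40) was scarce and highest in iNKT2-like cells, at 11.6 and 8.55 CPM in C57BL/6 and 5.02 and 4.26 CPM in Hivep3-/- libraries. The knockout libraries were lower without overlap, as for 44.8% of genes tested in this class. The log2 difference of -1.24 ± 0.30 did not pass (adjusted p = 0.178). In cycling-like cells it was at 3.88 and 3.29 against 1.09 and 0.792 CPM, from 76 and 7 UMIs, with a log2 difference of -2.14 ± 0.49 (adjusted p = 0.0467). That call was lost when any 1 library was left out, with an adjusted p of 0.0700 to 0.303. In C57BL/6 mice iNKT2-like cells exceeded the next class by 1.61 ± 0.26 (adjusted p = 2.36e-05), and the other 4 classes did not differ between neighbours. Regulatory T cells carry much OX40 and GITR, and the 4 regulatory T cell markers summed to 7.51 to 14.0 CPM in iNKT2-like cells, with 3 to 4 of 4 detected, where Foxp3 was at most 0.0791 CPM.

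Tnfrsf18 (GITR) was highest in iNKT1-like cells. In iNKT1-like cells it was at 191 and 187 CPM in C57BL/6 and 165 and 177 CPM in Hivep3-/- libraries, against 66.7 to 81.0 CPM in iNKT2-like cells. The step between these classes was 1.41 ± 0.10 in C57BL/6 and 1.21 ± 0.10 in Hivep3-/- mice (adjusted p = 2.62e-11 and 1.25e-09). In stage 0-like cells it was at 46.2 and 31.8 against 62.8 and 59.5 CPM, without overlap (as for 40.2% of genes tested there) and without a call. Thinned shares were 28.6% to 32.8% in iNKT1-like cells.

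Tnfrsf1b, the gene of TNF receptor type 2, increased from stage 0-like cells, at 10.1, 7.64, 10.7 and 10.9 CPM, to iNKT1-like cells, at 52.6, 46.4, 60.2 and 51.8 CPM. In the wild type, iNKT1-like and iNKT17-like cells did not differ beyond their spread (0.18 ± 0.14, adjusted p = 0.422), and in Hivep3-/- mice iNKT1-like cells were higher by 0.71 ± 0.15 (adjusted p = 0.00121). Neither Tnfrsf18 nor Tnfrsf1b differed between genotypes past the threshold in any class.

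**Figure D4:**
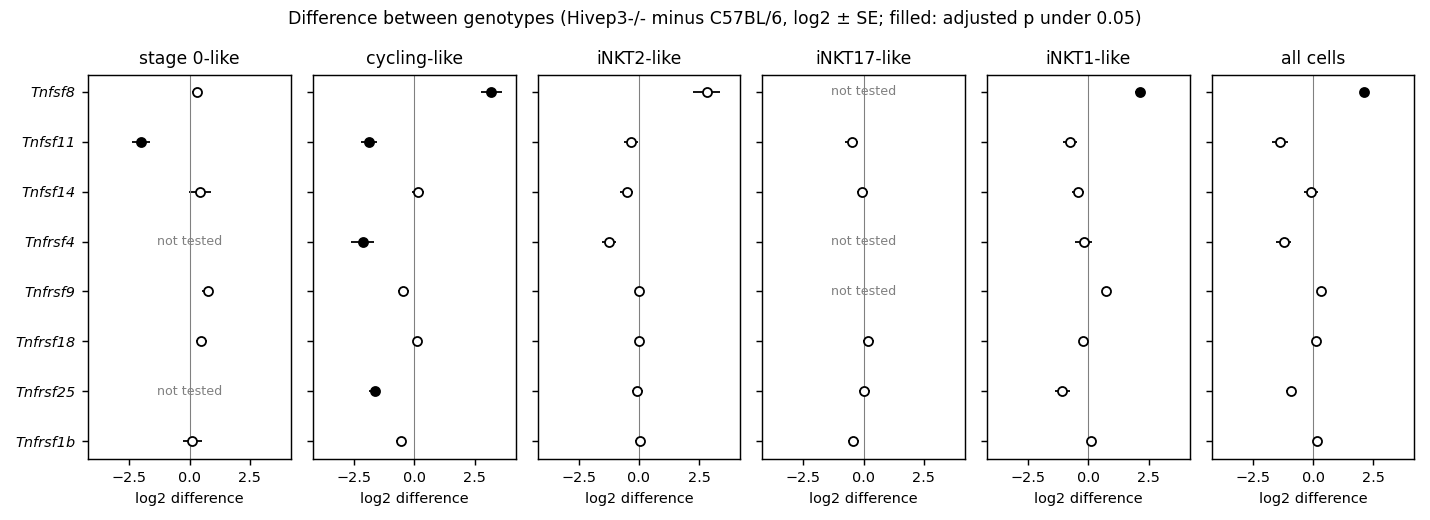
Log2 difference between genotypes (horizontal axes, Hivep3-/- minus C57BL/6, ± SE) for each gene in the 5 classes and over all cells, from edgeR fits with n = 2 mice per genotype. Filled points have an adjusted p under 0.05: Tnfsf8, Tnfsf11, Tnfrsf4 and Tnfrsf25 in cycling-like cells, Tnfsf11 in stage 0-like cells, and Tnfsf8 in iNKT1-like cells and over all cells.

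Whether the genotype difference of a gene varied between classes was tested in 1 fit over the 20 sums of library and class. It varied for 4 of 8 genes (11% of 11170 genes tested), Tnfsf8 (adjusted p = 3.34e-05), Tnfrsf25 (0.000327), Tnfsf11 (0.000476) and Tnfrsf9 (0.00608). It did not pass for Tnfrsf1b (0.0525), Tnfrsf18 (0.143), Tnfrsf4 (0.214) and Tnfsf14 (0.350). The mutant increase of Tnfsf8 was smaller in stage 0-like than in cycling-like cells by 2.86 log2 units (adjusted p = 7.01e-05; 2.44% of all genes) and than in iNKT1-like cells by 1.83 (adjusted p = 0.000961; 2.43%). For Tnfsf11 the cycling-like difference was more negative than that in iNKT2-like cells, by -1.57 (adjusted p = 0.000357; 4.02%). For Tnfrsf25 it was more negative in cycling-like than in iNKT17-like cells, by -1.66 (adjusted p = 0.000435; 3.14%). For Tnfrsf9 the cycling-like and iNKT1-like differences lay 1.17 apart (log2 -1.17, adjusted p = 0.00206; 11.2%). With 1 library left out, these 5 contrasts (log2, first-named class minus second) kept their sign. They were -4.31 to -2.41, -1.93 to -1.76, -1.82 to -1.54, -1.93 to -1.38 and -1.49 to -0.87 in this order. Another 5 contrasts with cycling-like cells were called. The cycling-like difference was the more negative for Tnfrsf25 against iNKT2-like cells (-1.51, adjusted p = 0.00108), for Tnfsf11 against iNKT17-like cells (-1.42, adjusted p = 0.0236) and iNKT1-like cells (-1.27, adjusted p = 0.0115), and for Tnfrsf1b against iNKT1-like cells (-0.65, adjusted p = 0.0127). Tnfrsf9 differed between stage 0-like and cycling-like cells (1.17, adjusted p = 0.0169; 2.44%). Without C57BL/6 replicate 1 the iNKT1-like contrasts of Tnfsf11 (adjusted p = 0.148) and Tnfrsf1b (0.0583) were lost. Of the other contrasts, stage 0-like against iNKT2-like cells was called for Tnfsf8 and Tnfsf11 (1.27% of all genes) and lost for both without C57BL/6 replicate 1 (adjusted p = 0.350 and 0.529). For Tnfrsf25 the iNKT1-like difference was more negative than the iNKT2-like (0.96, adjusted p = 0.0212; 3.01%) and the iNKT17-like difference (1.12, adjusted p = 0.0242; 0.528%), and both were lost without that library (0.204 and 0.419). None of the 8 genes was called for stage 0-like against iNKT17-like cells (0.752%) or iNKT2-like against iNKT17-like cells (0.179%) by edgeR, where 1 gene (Tnfsf11) and 0 genes had an unadjusted p under 0.05.

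Differences between classes were frequent for these genes, as for many others. Of 80 gene by class-pair comparisons, 62 were called in C57BL/6 and 59 in Hivep3-/- mice. In C57BL/6 mice, stage 0-like cells differed from cycling-like cells in 5 of the 8 genes (36.6% of all genes were called), and from iNKT2-like, iNKT17-like and iNKT1-like cells in 7 each (36.1%, 35.5% and 49%). Cycling-like cells differed from iNKT2-like cells in 7 (41%), from iNKT17-like cells in 4 (40.9%) and from iNKT1-like cells in 6 (66.2%), a share near the background. The iNKT2-like cells differed from iNKT17-like cells in 6 (19.2%) and from iNKT1-like cells in 8 (48.2%), and iNKT17-like from iNKT1-like cells in 5 (26.4%). In Hivep3-/- mice the same pairs in the same order gave 4 (34.4%), then 8, 6 and 6 (43%, 41.1% and 57.7%), then 6, 6 and 5 (40.1%, 39.7% and 57.9%), then 4 and 7 (15.4% and 35%), and 7 (21.5%). The count of 5 for cycling-like against iNKT1-like cells was again near the background. Tnfrsf25 differed in 10 of 10 pairs in C57BL/6 and 9 of 10 in Hivep3-/- mice, and Tnfrsf4 in 4 and 3. Scaling between classes bears on small steps, since the mean TMM factor of stage 0-like sums exceeded those of the other classes by 0.24 to 0.37 on the log2 scale.

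In the list of further family members and signalling genes, 3 genes were called, all of them in cycling-like cells, where 4.68% of all genes were called. Of 15 other ligands 8 were tested there and 1 was lower, Tnf, at 33.4 and 26.3 against 12.4 and 16.6 CPM (log2 -1.18 ± 0.24, adjusted p = 0.0306). Of 23 other receptors 13 were tested. Fas, the death receptor, was lower at 26.9 and 39.4 against 17.5 and 17.2 CPM (adjusted p = 0.0465), and Tnfrsf13c, the BAFF receptor gene, was higher at 0.346 and 0.494 against 2.55 and 2.38 CPM, from 8 and 19 UMIs (adjusted p = 0.0490). None of 14 adaptor and death domain genes or 13 NF-κB genes was called in any class by edgeR, with an unadjusted p under 0.05 in 5 of 70 and 5 of 65 tests. Ltb, Nfkbia, Cd27, Cd40lg and Tnfaip3 had the highest mean levels of this list (440, 436, 210, 110 and 95.8 CPM) and were not called. Tnfaip3, an NF-κB target, was at 175, 139, 38.9 and 155 CPM over all cells, with Hivep3-/- replicate 1 the low library. The receptors of the 2 ligands that differed were hardly seen in these cells. Tnfrsf8 (CD30) had at most 2 UMIs in any class sum, and Tnfrsf11a (RANK) had 2 and 1 UMIs, both in C57BL/6 iNKT17-like cells.

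Over the 20 sums, which share libraries and depth, the log2 levels of Tnfsf8 and Tnfrsf9 had a Pearson r of 0.79, those of Tnfsf8 and Tnfrsf25 an r of -0.92, and those of Tnfsf14 and Tnfrsf1b an r of 0.84, given as a description across 5 classes and 4 mice. Among the 5310 genes that averaged 20 CPM or more, Cd2 was most like Tnfsf8 (r = 0.93). Zbtb16, followed by the iNKT2 marker Il17rb, was most like Tnfsf11 (r = 0.91). For the receptors, Sh3bp2 was most like Tnfrsf9 (r = 0.94), Rnh1 and Rora most like Tnfrsf25 (r = 0.95 for both), Trip4 most like Tnfrsf18 (r = 0.97) and Ltb most like Tnfrsf1b (r = 0.96). Kbtbd11 was most like Tnfsf14 (r = 0.95), and the closest genes to Tnfrsf4 were ribosomal protein genes, led by Rpl29 (r = 0.81).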

How the data were processed

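The deposited files hold raw UMI counts per gene and cell, which the authors made from 10x Genomics 5′ libraries (per the labels, with Cell Ranger 3.1.0, Seurat 3.1.4 and mm10). Replicate numbers were taken from the labels. Cells with 500 or more and under 4100 genes, at least 1000 UMIs and under 6% mitochondrial UMIs were kept. Total counts were 31381738 to 48291764 UMIs per library over all barcodes, and class sums held 785219 to 18867546 UMIs. Scrublet (scanpy 1.11.5) called 0 to 5 doublets per library, which is too few to have worked, so no doublet was removed, and removal of the highest 5% of scores was an alternative. Cells were clustered in Seurat 5.3.0 (R 4.3.3) on 2000 variable genes, with 30 components, mutual nearest neighbour correction (20 neighbours) and Louvain resolution 0.8. Left out of the variable genes were 46 TNF superfamily genes, Hivep3, 26 genes taken from the study, and sex-linked and receptor segment genes. Clusters were named from marker lists by a rule set after seeing the data. Names were rebuilt here and may differ from those of the study. UMIs were summed per library and class and tested in edgeR 4.0.16 (TMM, filterByExpr, quasi-likelihood, Benjamini-Hochberg over all genes tested), with DESeq2 1.42.0 as an alternative. The code was tested on simulated data. The study's rank test over cells was replaced since cells are not replicates. The 8 genes, the pathway lists and the tests were chosen with earlier results of these data known. Named genes of the pathway list were those called in at least 1 class or among the 5 highest. Tests of single clusters, of clusters 3 and 7 and of pairwise differences of differences were added after seeing the data. A marker of the iNKT17-like class is not reported here.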

Additional observations from a re-analysis of the deposited data

Results flagged for a closer look

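The genotype difference varied between the 5 classes for 4 genes, by the edgeR interaction test over all 4 libraries with Benjamini-Hochberg adjustment over 11170 genes. The adjusted p was 3.34e-05 for Tnfsf8, whose mean level rose from 1.61 to 18.9 CPM in cycling-like cells and was 102 and 137 CPM in stage 0-like cells. It was 0.000476 for Tnfsf11, with means of 33.0 and 9.37 CPM in cycling-like and 51.0 and 42.9 CPM in iNKT2-like cells of C57BL/6 and Hivep3-/- mice. It was 0.000327 for Tnfrsf25, with means of 22.6 and 8.13 CPM in cycling-like and 126 and 135 CPM in iNKT17-like cells. It was 0.00608 for Tnfrsf9, with means of 26.0 and 21.4 CPM in cycling-like and 18.6 and 32.5 CPM in iNKT1-like cells, and this call was lost without C57BL/6 replicate 2 (adjusted p = 0.0905).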

How the results depend on the processing

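The calls of Tnfsf8 in cycling-like and iNKT1-like cells passed under every other setting of the fit, filter, cell set and clustering. The exceptions were cluster 10 alone (adjusted p = 0.0892) and cluster 8 alone (0.298). With 1 library left out, the Tnfsf8 log2 differences were 2.73 to 4.63 in cycling-like and 2.01 to 2.25 in iNKT1-like cells. Fits with 1 library left out hold 1 mouse of a genotype, so their calls carry no spread between mice of that genotype. Counts of the 8 genes called in other settings were as follows. In stage 0-like cells the count of 1 became 0 in DESeq2, with no library correction and with TNF genes kept among the variable genes, 2 with no filter on low counts, and 1 to 2 with 1 library left out. In cycling-like cells the count of 4 became 1 with no library correction, 0 in cluster 10 alone, 2 in cluster 11 alone and 3 with any library left out. In iNKT2-like cells the count of 0 became 1 in DESeq2, 2 with no filter, and 0 to 1 with 1 library left out. In iNKT17-like cells it was 0 throughout. In iNKT1-like cells the count of 1 became 3 with no filter, 2 in cluster 4 alone, 0 in cluster 8 alone and 1 to 2 with 1 library left out. Over all cells the count of 1 became 3 in DESeq2, 4 with no filter and 0 to 2 with 1 library left out. In cluster 3 the count of 0 became 1 with no filter and 0 to 1 with 1 library left out, and in cluster 7 the count of 1 became 3 and 1 to 3. The interaction count of 4 ranged from 3 to 6, and stage calls from 51 to 67 in C57BL/6 and 55 to 66 in Hivep3-/- mice. Single clusters reversed the sign of some differences that were not called, among them Tnfsf11 in iNKT1-like cells (0.11 in cluster 4 alone, -0.75 in the class) and Tnfsf14 (0.38 in cluster 2 alone), and, in cycling-like cells, Tnfrsf18 (-0.13 in cluster 10, -0.08 in cluster 11) and Tnfsf14 (-0.10 in cluster 10). Tnfsf11 in cycling-like cells was lost with no library correction (adjusted p = 0.0597), as was Tnfrsf25 (0.0553). The Tnfrsf4 call in cycling-like cells was lost in 10 of its 13 alternative settings. The cause of these changes was not tested. The labels number the mice of both genotypes 1 and 2 without stating a shared litter or day, so the numbers do not pair them. With the number as a replicate block the stage 0-like count was 2 (Tnfrsf9 added, adjusted p = 0.00451), the cluster 3 count was 1, and the Tnfrsf4 call in cycling-like cells was lost (0.0739). With 2 mice per genotype and few UMIs of Tnfrsf4, differences below the spread were not detectable at this depth.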
